A study of Mus musculus with 12 samples.

Results

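The neurotransmitter receptor genes of the mouse retina were examined in control and *Otx2* conditional knockout (CKO) retinas at postnatal day 1 (P1) and P12. The genes are those whose symbols name a subunit of a GABA, glycine, AMPA, kainate, NMDA, delta or nicotinic receptor or a metabotropic glutamate receptor, without *Grm6*. They were found by symbol among the probe sets annotated with 1 gene, and each gene was followed by its brightest probe set. This gave 57 genes with 113 probe sets, of 18193 such genes on the array. Whole-retina RNA was hybridized to Affymetrix Mouse Genome 430 2.0 arrays, with 3 arrays in each of 4 groups. Control mice were *Otx2* flox/flox without Crx-Cre and CKO mice were *Otx2* flox/flox with Crx-Cre, so both carried the floxed alleles and differed in the Cre transgene. Crx-Cre places the recombinase under the *Crx* promoter, which is active in photoreceptor precursors. The arrays of a group come from independent experiments numbered 1 to 3. The sources used here do not say how many animals gave each RNA, so p-values measure the spread between arrays. In RNA of the whole retina, fewer cells of a type and less RNA per cell cannot be told apart.

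GABA and glycine receptors pass chloride and, in the mature retina, inhibit the cell that carries them. Amacrine and horizontal cells are the inhibitory neurons of the retina. GABA-A and glycine receptors are spread over most of its cell classes, whereas the GABA-rho subunits form the receptors also called GABA-C, which are known above all from the axon terminals of bipolar cells. AMPA and kainate receptors are the fast glutamate receptors of horizontal, OFF bipolar, amacrine and ganglion cells, NMDA receptors sit mainly on amacrine and ganglion cells, and the metabotropic receptors act through G proteins. Acetylcholine is released by starburst amacrine cells, and nicotinic receptors carry the cholinergic waves of the immature retina.

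In P12 *Otx2* CKO retina the pair of GABA-rho subunit genes was lower, with signals that overlapped those of P1, while a small set of glycine, kainate, nicotinic and GABA-A subunit genes rose. *Gabrr1* and *Gabrr2* were lower, and *Glra2*, *Chrna3*, *Grik3*, *Grik2*, *Chrnb4* and *Gabra3* were higher. A gene was tested where its mean normalized signal reached 50 in at least 1 of the compared groups, and a change was called at an adjusted p under 0.05 from limma with Benjamini-Hochberg adjustment over all probe sets tested. Of the 57 genes 27 were tested at P12, with 2 lower and 6 higher. Of all 16989 probe sets tested 8.51% were lower and 8.01% higher. The median log2 change was 0.54 over the 27 genes and 0.066 over all probe sets tested. *Gabrr1* and *Gabrr2* reached the limit of 50 at P12 only in control, and *Glra2*, *Grik3*, *Grik2*, *Chrnb4* and *Gabra3* only in CKO retina. They were admitted by the group in which they were high, so these counts and the median are no test of the set. With the limit on the mean of 12 arrays 16 of the genes were tested, with 5 higher and 1 lower. The shares of all probe sets were then 7.32% and 6.85%. In the deposited signals 75.7% of all calls were higher, against 48.5% here, and 8 receptor genes were higher and 2 lower. These fits leave out the experiment numbers. With arrays paired by number within each age 13 receptor genes were higher and 3 lower, beside 21.5% and 16.5% of all probe sets. Signals below are normalized intensities, log2 changes are of signal + 16 and understate the change of dim genes, and errors of group means are SD over 3 arrays.

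The promoters of the GABA-rho genes are shown because these were the receptor genes called lower in the P12 groups. *Gabrr2* and *Gabrr1* lie beside each other on chromosome 4, with 0 other protein-coding genes between them in the RefSeq annotation. The sequences are from RefSeq (GRCm38.p6), plus strand, and end at the base before the start that the promoter table gives each gene, which for *Gabrr2* lies inside the gene's full annotated span. Capitals mark the letters TAATC or their reverse complement GATTA, a core that Otx and Crx homeodomains are known to bind, searched on both strands.

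Gabrr2, chr4:33062862-33063111: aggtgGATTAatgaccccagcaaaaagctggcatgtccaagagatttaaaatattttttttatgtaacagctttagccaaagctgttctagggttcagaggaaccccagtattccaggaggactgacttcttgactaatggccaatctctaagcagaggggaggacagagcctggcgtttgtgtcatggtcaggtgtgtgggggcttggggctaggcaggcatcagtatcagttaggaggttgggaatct
Gabrr1, chr4:33132306-33132555: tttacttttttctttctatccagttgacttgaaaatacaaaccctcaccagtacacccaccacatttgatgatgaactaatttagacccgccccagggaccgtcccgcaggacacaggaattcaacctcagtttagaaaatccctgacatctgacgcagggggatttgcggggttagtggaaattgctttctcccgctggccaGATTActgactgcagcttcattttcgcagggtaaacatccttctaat

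Each sequence held 1 match, whose first base is at position -245 from the start in *Gabrr2* and -47 in *Gabrr1*. Of the promoters of the 6 genes called higher none held the letters in this window of 250 bases. Of all 32851 promoter windows 19.8% held a match, and so did 11 of the 50 windows found for 42 of the receptor genes. A match describes letters and does not show binding.

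*Gabrr1* encodes the rho1 subunit. The paper lists this gene among those strongly down-regulated in P12 *Otx2* CKO retina and gives its cell type as photoreceptor. At P12 its signals were 219.9, 482 and 374 on the control arrays and 12.4, 5.59 and 2.98 on the CKO arrays. At P1 they were 1.72, 16.4 and 2.0 in control and 11.6, 3.64 and 4.79 in CKO. The P12 control arrays stood far above all of the others, and the other 3 groups overlapped. The P12 means were 359 ± 132 and 7.01 ± 4.89 (n = 3 each), and the log2 change was -3.98 (SE 0.31, limma adjusted p = 7.3e-07).

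*Gabrr2* encodes the rho2 subunit and showed the same layout. The P12 signals were 90.9, 202 and 139 in control and 10.7, 12.1 and 4.76 in CKO, and the 6 P1 arrays lay between 0.775 and 14.9. Every P12 control array was above every other array. The P12 log2 change was -2.62 (SE 0.29, limma adjusted p = 1.8e-05). Both genes rose from P1 to P12 in control, by log2 4.04 (limma adjusted p = 3.0e-07) for *Gabrr1* and 2.84 (adjusted p = 3.8e-06) for *Gabrr2*. These comparisons and the genotype comparison share the P12 control arrays. Neither gene reached a mean of 50 in CKO retina at either age, so no change with age was tested there. Each was represented by a single probe set.

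Among the cell type markers the rod and cone and the bipolar lists moved in the same direction as the GABA-rho genes. All 12 measured rod and cone markers and all 7 tested bipolar markers were lower in P12 CKO retina, beside 8.51% of all probe sets. Of these markers only 4 of rods and cones and 3 of bipolar cells reached the signal limit in CKO retina at either age. The others were admitted at P12 by the control group, in which they were high, so these counts are no test of the lists. The summed signal of the rod and cone markers lay between 22018 and 24088 on the P12 control arrays and between 412 and 823 on the CKO arrays. The summed signal of the 10 measured bipolar markers lay between 4860 and 5498 on the P12 control arrays and between 419 and 547 on the CKO arrays. The bipolar list holds *Grik1*, a receptor gene that was not tested here, with means of 18.9 in P12 control and 17.4 in P12 CKO retina. *Pcp2*, a bipolar cell marker, fell by 5.21 on the log2 scale. Their part in the GABA-rho result was not tested. *Otx2*, the deleted gene and itself a bipolar marker, was at 938, 592 and 588 in P12 control and at 96.6, 114 and 67.5 in P12 CKO retina. It is counted among the 7 bipolar markers and in their sums, and its fall follows from the design.

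**Figure D1:**
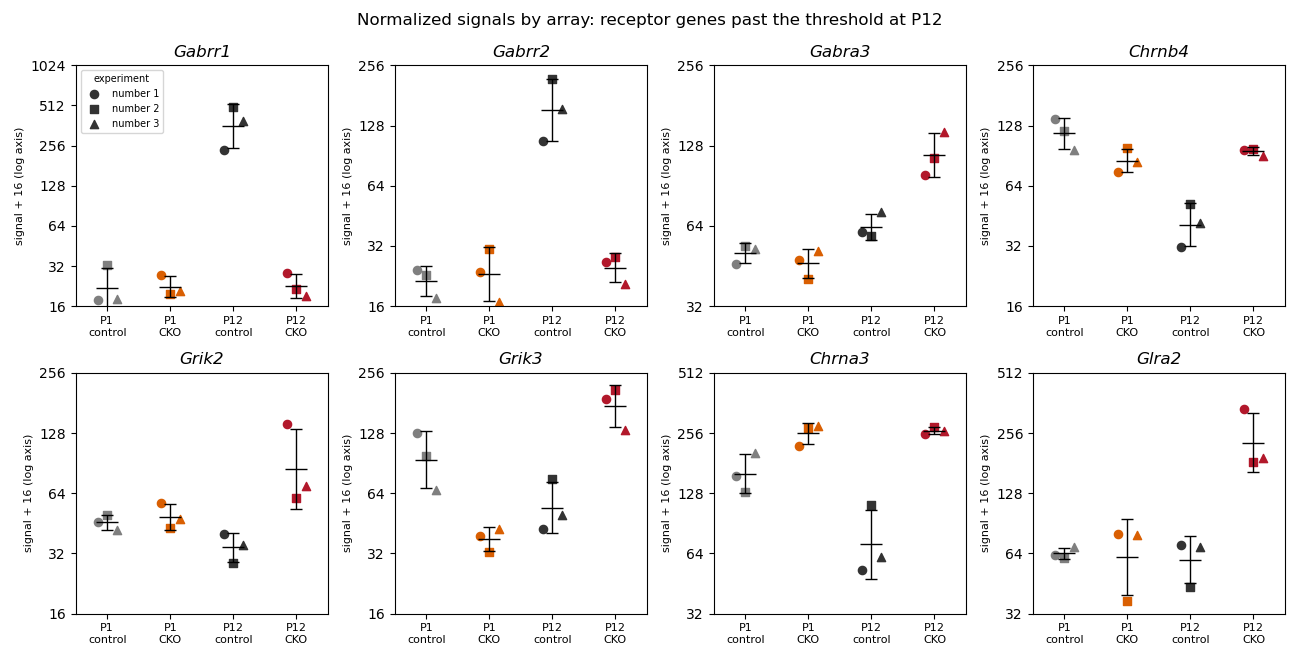
Normalized signal + 16 (log axis) of the 8 receptor genes past the threshold at P12, on each of the 12 arrays. Symbols give the experiment number, and bars the mean ± SD of 3 arrays on the log2 scale. *Gabrr1* and *Gabrr2* are high in P12 control retina, and the other 6 genes are higher in P12 CKO than in P12 control retina.

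*Glra2*, the alpha2 subunit of the glycine receptor, which is common in immature neurons, was the most strongly raised receptor gene at P12 by log2 change. Its signals were 55.0, 27.6 and 52.7 in P12 control and 323, 168 and 177 in P12 CKO retina. In P1 retina they were 47.2, 44.8 and 52.9 in control and 64.0, 20.9 and 62.7 in CKO. The P12 CKO arrays were above all others, and the control arrays of both ages lay between 27.6 and 55.0. The ratio of the P12 means was 4.94, with a log2 change of 1.94 (SE 0.33, limma adjusted p = 0.00085). In CKO retina it rose from P1 to P12 by log2 1.90 (limma adjusted p = 0.00071).

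The other glycine receptor genes tested did not pass between the P12 groups. *Glrb*, the beta subunit that ties the receptor to gephyrin, read 161, 146 and 195 in P12 control and 293, 225 and 275 in P12 CKO retina. The groups did not overlap, and the log2 change was 0.61 (limma adjusted p = 0.10). With control and CKO arrays of an experiment number treated as a pair, *Glrb* was called higher (adjusted p = 0.031). *Glra3* read 119, 7.85 and 46.9 in P12 control and 179, 31.6 and 51.4 in P12 CKO retina, with broad overlap. Both were higher at P12 than at P1 in CKO retina, by log2 2.31 (limma adjusted p = 9.3e-06) for *Glrb* and 2.01 (adjusted p = 0.014) for *Glra3*. *Glra1* and *Glra4* stayed under the limit of 50 in every group.

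Of the GABA-A subunit genes 4 of 13 were tested at P12, and *Gabra3* rose. This gene encodes the alpha3 subunit. It read 44.5, 42.5 and 56.2 in P12 control, 83.2, 99.3 and 128 in P12 CKO, and 24.4 to 38.0 on the 6 P1 arrays. The P12 CKO arrays were above all others. The ratio of the P12 means was 2.17, with a log2 change of 0.90 (SE 0.21, limma adjusted p = 0.0088). The other probe set of the gene gave 0.98 (adjusted p = 0.0087). With the P12 arrays fitted alone the call was lost (adjusted p = 0.079).

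*Gabrd*, the delta subunit found outside synapses, was the tested GABA-A gene with a negative change. It read 28.1, 83.1 and 44.5 in P12 control and 13.2, 35.9 and 22.1 in P12 CKO retina, with a log2 change of -0.73 (limma adjusted p = 0.11). The ratio of CKO to control was 0.468, 0.432 and 0.497 in the experiments numbered 1, 2 and 3, so each CKO array was below the control array of its number although the groups overlapped. With control and CKO arrays of a number treated as a pair, *Gabrd* was called lower (adjusted p = 0.0095). In control retina *Gabrd* rose with age, by log2 1.27 (adjusted p = 0.0034). *Gabra2* and *Gabrb2*, alpha2 and beta2 subunits, had log2 changes of 0.72 and 0.80 at P12 that did not pass between groups (adjusted p = 0.33 and 0.30). Both were called higher with the arrays paired (adjusted p = 0.045 and 0.014), and each was higher in 3 of 3 pairs.

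The kainate receptor genes held 2 of the 6 genes that rose at P12. *Grik3*, the low-affinity subunit GluK3, read 26.5, 59.4 and 34 in P12 control and 173, 195 and 117 in P12 CKO retina. At P1 the order was the opposite, with 111, 82.5 and 50.8 in control and 22.9, 16.6 and 26.5 in CKO. The genotype groups did not overlap at either age. The log2 change was 1.68 at P12 (SE 0.29, limma adjusted p = 0.00098) and -1.32 at P1 (SE 0.29, adjusted p = 0.14). With the arrays paired by number the P1 change was called (adjusted p = 0.016). The difference between these effects was 3.0 (SE 0.41, adjusted p = 0.00047). The second probe set of *Grik3* was below 10 on all P12 arrays and gave no test.

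*Grik2*, the subunit GluK2, read 23.9, 12.8 and 19.1 in P12 control and 127, 44.6 and 53.8 in P12 CKO retina, and 25.8 to 41.2 on the P1 arrays. All P12 CKO arrays were above all others, and array 1 was the highest. The log2 change was 1.3 (SE 0.29, limma adjusted p = 0.0064) with a ratio of means of 4.03, and the other probe set gave 1.59 (adjusted p = 0.0031). Without P12 CKO array 1 the CKO mean was under the limit of 50, so *Grik2* was not tested, and the log2 change was 0.88 (unadjusted p = 0.0016 from limma). With the P12 arrays fitted alone the call was lost (adjusted p = 0.072). *Grik5*, the high-affinity subunit GluK5, read 138, 191 and 110.0 in P12 control and 145, 237 and 154 in P12 CKO retina and did not pass (adjusted p = 0.54).

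*Chrna3* and *Chrnb4* encode the alpha3 and beta4 subunits, which combine in nicotinic receptors of autonomic ganglia and of some central neurons. They lie side by side with *Chrna5* on chromosome 9, and *Chrna5* stayed under the limit of 50. *Chrna3* read 36.9, 95.7 and 45.3 in P12 control and 238, 259.8 and 245 in P12 CKO retina. At P1 it read 139.6, 114 and 187 in control and 206, 254 and 261 in CKO. The genotype groups were apart at both ages and the P12 CKO arrays lay within the range of the P1 CKO arrays. The ratio of the P12 means was 4.17, with a log2 change of 1.89 (SE 0.27, limma adjusted p = 0.00020). A second of the 3 *Chrna3* probe sets gave 1.76 (adjusted p = 0.00012). At P1 the log2 change was 0.67 and did not pass (adjusted p = 0.999).

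*Chrnb4* read 15.6, 36.1 and 25.8 in P12 control and 81.0, 82.2 and 74.1 in P12 CKO retina. At P1 it read 122, 105 and 80.7 in control and 59.2, 82.9 and 68.2 in CKO, and these groups overlapped. The ratio of the P12 means was 3.07, with a log2 change of 1.21 (SE 0.23, limma adjusted p = 0.0020). These values are from the brighter of the 2 *Chrnb4* probe sets, and the other is not given here. The difference from the P1 effect was 1.67 (SE 0.32, adjusted p = 0.0075).

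Both genes fell in control retina between P1 and P12, by 1.17 on the log2 scale for *Chrna3* (limma adjusted p = 0.0032) and by 1.52 for *Chrnb4* (adjusted p = 0.00014). In CKO retina the changes with age were 0.047 (adjusted p = 0.92) and 0.15 (adjusted p = 0.67). These age changes are relative to the whole array, because normalization set all arrays to 1 distribution. In the deposited signals the median probe set was higher at P12 than at P1 by log2 1.45 in control and 1.85 in CKO retina. There *Chrna3* changed by 0.35 and *Chrnb4* by -0.15 in control and neither fall was called, and in CKO they changed by 2.21 and 1.99. With quantile normalization within each age the control changes were 0.57 and 0.060, and neither was called.

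The other 4 nicotinic genes tested did not pass at P12. *Chrna6*, the alpha6 subunit, read 298, 293 and 252 in P12 control and 208, 243 and 231 in P12 CKO retina. The groups did not overlap, and the log2 change was -0.29 (limma adjusted p = 0.39). *Chrna4*, the alpha4 subunit, read 72.2, 74.3 and 55.0 in control and 47.1, 54.8 and 35.8 in CKO (log2 change -0.43, adjusted p = 0.22). *Chrnb2*, the beta2 subunit that pairs with alpha4, read 100.4, 161 and 145 in control and 176, 182 and 181 in CKO (log2 change 0.39, adjusted p = 0.20). *Chrna7*, the alpha7 subunit, overlapped between the groups, with a log2 change of -0.0086. The muscle receptor genes *Chrna1*, *Chrnb1*, *Chrnd*, *Chrne* and *Chrng* stayed under the limit of 50 in every group.

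**Figure D2:**
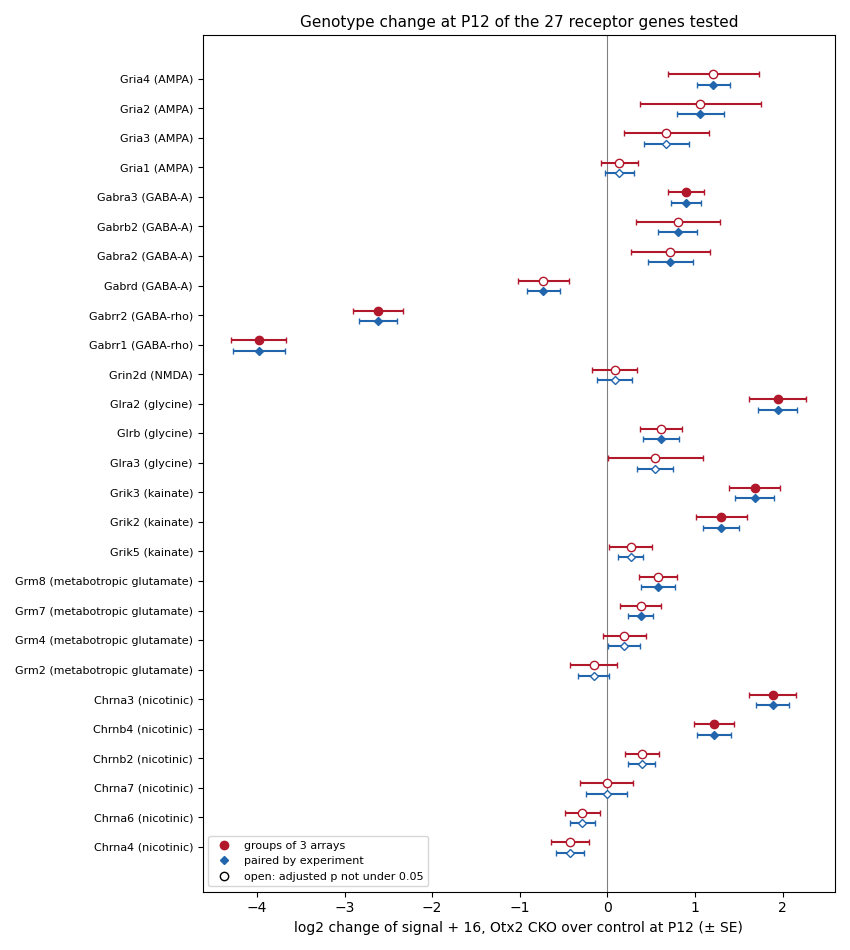
Log2 change of signal + 16 in *Otx2* CKO against control retina at P12 (± SE) for the 27 receptor genes tested, by subunit group. Circles compare groups of 3 arrays and diamonds pair arrays by experiment number, and filled symbols have an adjusted p under 0.05. *Gabrr1* and *Gabrr2* lie far to the left, and pairing shortens the error bars of *Gria2* and *Gria4*.

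The 4 AMPA receptor genes were all tested at P12 and none passed between groups. *Gria4*, the subunit GluA4, read 447, 85.2 and 215 in P12 control and 1070.3, 239 and 468 in P12 CKO retina. *Gria2*, the subunit GluA2 that limits calcium entry, read 403, 32.6 and 164 in control and 795, 123 and 278 in CKO. In both genotypes array 1 was the highest and array 2 the lowest, and the groups overlapped for both genes. The log2 changes were 1.21 (SE 0.52, limma adjusted p = 0.14) for *Gria4* and 1.06 (SE 0.69, adjusted p = 0.35) for *Gria2*. With the arrays paired both were called higher (adjusted p = 0.00037 and 0.0086). A dimmer probe set of *Gria4* did pass, with 1.4 (adjusted p = 0.022). *Gria3* had 0.67 (adjusted p = 0.41) and *Gria1* 0.14 (adjusted p = 0.74).

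The spread of these genes followed the experiment number. *Gria4* was higher in CKO by 2.39, 2.81 and 2.18 times in the experiments numbered 1, 2 and 3, and *Gria2* by 1.97, 3.79 and 1.70 times. The order with array 1 highest and array 2 lowest in both genotypes was found in 9 of the 27 tested receptor genes (33.3%) and in 18.4% of all tested probe sets. The 9 genes were *Chrna7*, *Gabra2*, *Gabrb2*, *Glra2*, *Glra3*, *Gria2*, *Gria3*, *Gria4* and *Grik2*. The 18S rRNA control probe set also moved with the number at P12, at 53.5, 142.9 and 627 in control and 105.7, 150.7 and 683.3 in CKO (deposited signals). The ratio of the 3' to the 5' *Gapdh* control probe set was between 0.671 and 0.832 on all 12 arrays. The part of RNA quality in the spread was not tested.

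With arrays paired by number within each age, 13 receptor genes were called higher at P12 and 3 lower. Over all probe sets this fit called 21.5% higher and 16.5% lower. Added to the 6 genes above were *Gria4*, *Gria2*, *Gabrb2*, *Glrb*, *Grm8*, *Gabra2* and *Grm7*, and *Gabrd* was added to the genes called lower. Of the 27 genes tested at P12, 18 were higher in 3 of 3 pairs and 6 were lower in 3 of 3, beside 37.9% and 28.6% of all tested probe sets. By groups 10 genes lay wholly above control and 4 wholly below (*Chrna4*, *Chrna6*, *Gabrr1* and *Gabrr2*). These are 14 of 27, beside 25.8% of all tested probe sets whose groups did not overlap in either direction. Of the 14 genes *Chrna4*, *Gabrr1* and *Gabrr2* reached the signal limit at P12 only in control. *Chrnb4*, *Gabra3*, *Glra2*, *Grik2*, *Grik3* and *Grm8* reached it only in CKO retina. Such genes were admitted by the group in which they were high. The counts by groups, by pairs and of paired calls are therefore no test of the set.

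**Figure D3:**
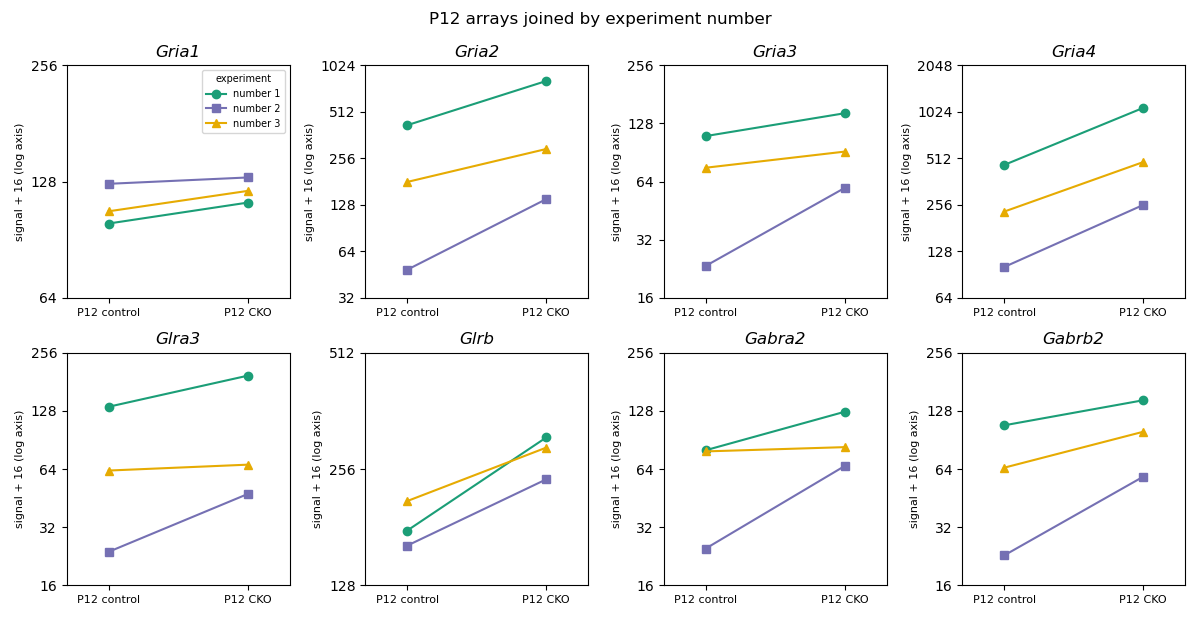
Normalized signal + 16 (log axis) of 8 receptor genes at P12, with control and CKO arrays of the same experiment number joined. The 8 genes are among the 18 that were higher in 3 of 3 pairs, so each line rises from control to CKO. Another 6 tested genes, not drawn, were lower in 3 of 3 pairs. The lines of one gene lie far apart for *Gria2*, *Gria3*, *Gria4*, *Glra3*, *Gabra2* and *Gabrb2*.

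The metabotropic glutamate receptor genes, whose products couple to G proteins, did not pass between the P12 groups. *Grm8*, a presynaptic receptor, read 36.9, 50.7 and 31.8 in control and 67.3, 72.1 and 60.3 in CKO, with groups apart and a log2 change of 0.58 (limma adjusted p = 0.096). *Grm7*, also presynaptic, read 125, 138 and 173 in control and 179.8, 188 and 209.9 in CKO (0.38, adjusted p = 0.32). With the arrays paired both were called higher (adjusted p = 0.033 for *Grm8* and 0.049 for *Grm7*). *Grm2* and *Grm4* overlapped between the groups. Of the NMDA receptor genes *Grin2d* was the 1 tested of 6, with a log2 change of 0.082 at P12 (adjusted p = 0.88). *Grid1*, a delta receptor gene, was not tested.

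At P1 the receptor genes gave no call. Of 11 tested genes 0 were higher and 0 lower by limma, while of 15885 probe sets 0.246% were lower and 0% higher. Without adjustment 2 genes had p under 0.05, *Chrna3* (higher in CKO) and *Grik3* (lower). With arrays paired by number within each age *Grik3* was called lower (adjusted p = 0.016), and that fit called 0.604% of probe sets lower and 0.0881% higher.

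The genotype effects at P12 and P1 differed for 5 of 27 receptor genes. The effect was more negative at P12 for *Gabrr1* (-4.02) and *Gabrr2* (-2.73) and more positive for *Grik3* (3.0), *Glra2* (2.0) and *Chrnb4* (1.67). At P1 *Gabrr1*, *Gabrr2* and *Glra2* were under the signal limit in control and CKO, so their P1 effect was not tested. Their mean P1 signals in control and CKO were 6.72 and 6.68, 5.65 and 7.85, and 48.3 and 49.2. Their P1 log2 changes were 0.041, 0.11 and -0.062. The differences for these genes thus mostly repeated their P12 effects of -3.98, -2.62 and 1.94. Of all 18652 probe sets tested 3.19% were more negative and 1.27% more positive. With pairs within each age 9 genes were more positive, *Chrna3*, *Gabra3*, *Grik2*, *Gria2*, *Gria4* and *Gabrb2* in addition, and 3 more negative, with *Chrna4* in addition. That fit called 9.93% of probe sets more positive and 8.4% more negative. With the experiment number alone as the replicate block 6 were more positive. The *Glra2* call was lost without any 1 of the P1 control arrays or without P1 CKO array 2, with adjusted p up to 0.072.

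In control retina 10 of 21 tested receptor genes rose from P1 to P12 and 3 fell. Of all 17646 probe sets tested 19.5% rose and 19.9% fell. Of the receptor genes that rose, only *Chrna6*, *Chrnb2* and *Grik5* reached a mean of 50 in P1 control retina. The others were admitted by the P12 control group, in which they were high, so the counts are no test of the set. These counts depend on the scale between the ages. In the deposited signals 22 receptor genes rose and 0 fell, beside 82.7% of all probe sets that rose, and with quantile normalization within each age 27 rose and 0 fell, beside 91.2%. After the GABA-rho genes the largest rise was that of *Chrna6*, from 73.3, 46.3 and 79.9 to 298, 293 and 252 (log2 change 1.87, limma adjusted p = 7.3e-06). *Glrb* rose from 34.5, 50 and 46.8 to 161, 146 and 195 (1.62, adjusted p = 0.00012), and *Grm2* from 18.2, 17.1 and 4.30 to 55.1, 85.8 and 50.6 (1.46, adjusted p = 0.00064). The P12 arrays were above the P1 arrays for all of these. *Gabrd*, *Chrna7*, *Gria1*, *Grik5* and *Chrnb2* also rose. *Grik3* fell beside *Chrna3* and *Chrnb4*, by 0.80 on the log2 scale (adjusted p = 0.042), but its change was 0.56 in the deposited signals (adjusted p = 0.10) and it was called higher, by 0.77, with quantile normalization within each age (adjusted p = 0.019). Calls lost when 1 array was left out were those of *Grik3* (without P1 control 1 or 2, P1 CKO 1 or 3, or P12 control 1 or 3, limma adjusted p up to 0.18), *Chrnb2* (without any P1 control array or P12 control 2 or 3, up to 0.11), *Grik5* (without P1 control 1 or 3 or P12 control 2, up to 0.075) and *Chrna7* (without P1 control 3 or P12 control 3, up to 0.057). *Gabrd* was not tested without P12 control 2 or P12 CKO 1 or 3. The other 8 calls were kept.

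In CKO retina 17 of 24 tested genes rose and *Chrna4* fell, beside 14.2% and 13.3% of all probe sets. Of the genes that rose, only *Chrna6*, *Chrnb2*, *Gria4*, *Grik5* and *Grm7* reached the signal limit in P1 CKO retina. The others were admitted by the P12 CKO group, in which they were high, so the counts are no test of the set. In the deposited signals 33 rose and 0 fell, beside 96.2% of all probe sets that rose, and with quantile normalization within each age 30 rose and 0 fell, beside 95.4%. The largest rises were those of *Glrb*, *Grik3* (log2 change 2.21, limma adjusted p = 7.3e-05), *Glra3* and *Gria4* (2.0, adjusted p = 0.012). *Gria4* read 168, 76.8 and 108 in P1 CKO retina and all P12 CKO arrays were above these. *Grm8* rose by 1.44 (adjusted p = 0.00027), from 12.6, 17.5 and 13.3, and *Chrna6* by 1.27 (adjusted p = 0.00037), from 87.3, 75.1 and 92.1. *Grin2d* rose by 0.91 (adjusted p = 0.018). *Chrna4* read 72.9, 119.9 and 86.1 at P1 and fell by 0.81 on the log2 scale (adjusted p = 0.014), but it was called higher in the deposited signals (log2 change 1.04, adjusted p = 0.0014) and with quantile normalization within each age (0.82, adjusted p = 0.0019). The fall was not called without P1 CKO array 2 or without P12 CKO array 3 (adjusted p up to 0.070). Without P12 CKO array 1 the count of genes that rose was 11. The call of *Gria4* was lost without P1 CKO array 2 (adjusted p = 0.053), and that of *Grin2d* without P1 CKO array 1 (up to 0.066) or, as not tested, without any P12 control array or P12 CKO array 1 or 2. *Grik5* lost its call in 7 of 12 such fits, *Gria3* and *Grm4* in 4, *Grm2* and *Grm7* in 2, and *Chrna7* and *Glra3* without P12 CKO array 1, where they were not tested. In both genotypes 7 genes rose: *Chrna6*, *Chrna7*, *Chrnb2*, *Glrb*, *Gria1*, *Grik5* and *Grm2*.

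**Figure D4:**
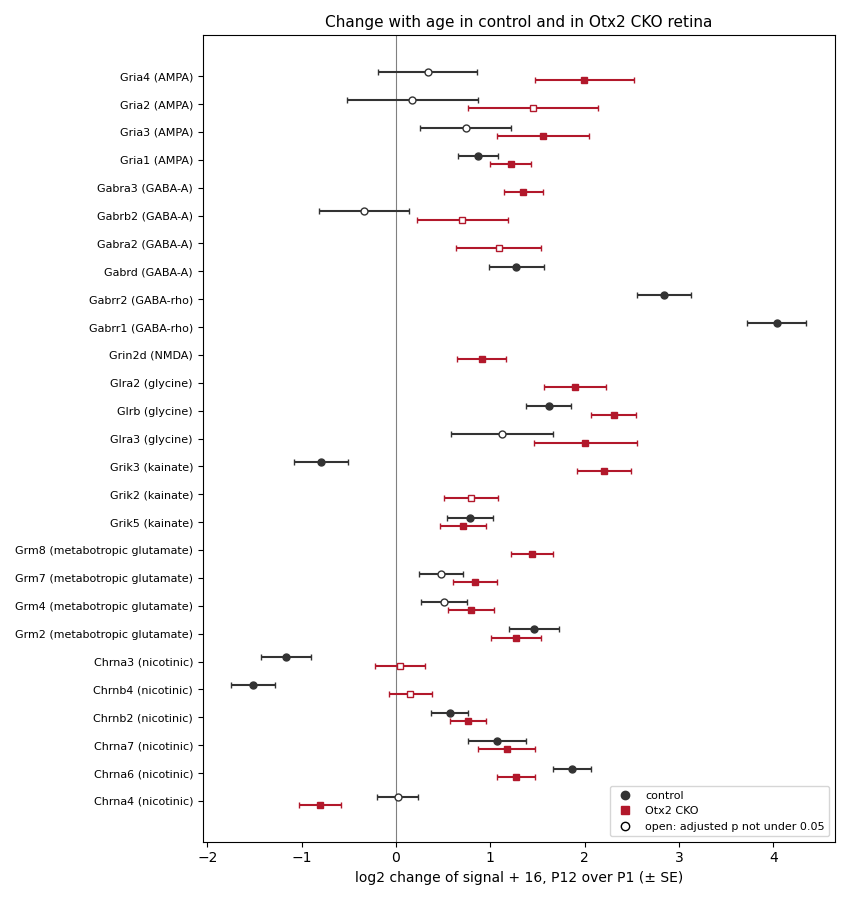
Log2 change of signal + 16 from P1 to P12 (± SE) in control (circles) and *Otx2* CKO retina (squares), for receptor genes tested in that genotype. Filled symbols have an adjusted p under 0.05. *Gabrr1* and *Gabrr2* have only a control value, and *Grik3* lies to the left in control, where its direction turned in the deposited signals and with quantile normalization within each age, and to the right in CKO.

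The remaining 30 receptor genes reached a mean of 50 in no group and were not tested. They were *Gabra4*, *Gabra5*, *Gabra6*, *Gabrb1*, *Gabre*, *Gabrg1*, *Gabrg3*, *Gabrp* and *Gabrq* of the GABA-A genes, *Glra1* and *Glra4*, *Grik1* and *Grik4*, *Grin2a*, *Grin2b*, *Grin2c*, *Grin3a* and *Grin3b*, *Grid1*, *Grm3* and *Grm5*, and *Chrna1*, *Chrna2*, *Chrna5*, *Chrna9*, *Chrnb1*, *Chrnb3*, *Chrnd*, *Chrne* and *Chrng*. For 13 of them the mean was under 16 in all 4 groups. A low signal of a probe set does not show that the gene is silent.

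Genes of proteins that bind or assemble the receptors were read at P12 beside the 8.01% of all probe sets called higher and the 8.51% called lower. Of the inhibitory partners 16 were tested at P12, with *Plcl2*, a receptor-trafficking protein, higher (log2 change 0.82, limma adjusted p = 0.030) and *Trak2*, a kinesin adaptor that binds GABA-A receptors, lower (-1.46, adjusted p = 0.0031). Of the auxiliary subunits and scaffolds of glutamate receptors 39 were tested, with 6 higher and 2 lower. *Cacng4*, an auxiliary subunit of AMPA receptors, was raised most, from 213, 183 and 212 to 531, 419 and 522 (1.21, adjusted p = 0.00015), and its groups were far apart. *Nlgn1*, a postsynaptic adhesion protein, had 1.18 (adjusted p = 0.0072). *C1ql3* (-1.84, adjusted p = 0.012) and *Lrrtm4* (-0.97, adjusted p = 0.0074), proteins that organize synapses, were lower. Of the nicotinic partners 9 were tested, with *Agrn* (0.69, adjusted p = 0.021) and *Lypd6* (0.92, adjusted p = 0.0072) higher and *Lrp4* (-1.71, adjusted p = 0.0036) lower. *Agrn* and *Lrp4* organize the neuromuscular junction and *Lypd6* binds nicotinic receptors. The median log2 changes of the 3 lists were 0.12, 0.37 and 0.30, beside 0.066 for all probe sets.

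Markers of other cells were read on the same arrays, beside the same 8.01% of all probe sets called higher and 8.51% called lower. Of the amacrine markers 4 of 10 tested were higher and 0 lower in P12 CKO retina, among them *Tfap2c* (log2 change 1.89, limma adjusted p = 0.00075) and *Slc6a9*, the glycine transporter of glycinergic amacrine cells (0.96, adjusted p = 0.010). The summed amacrine signal was 5352 to 5604 on the P12 control and 7907 to 8175 on the P12 CKO arrays. Of the Müller glia markers 4 of 9 were higher, with sums of 6658 to 8079 and 11273 to 12953. Of the ganglion cell markers 1 of 9 was lower (*Isl1*, which is also on the bipolar list), of the horizontal cell markers 1 of 5 was higher and 2 were lower, and the sums overlapped for both lists. Of the pigment epithelium markers 2 of 6 were higher, and the sums overlapped (612 to 1667 and 1046 to 2905). Of the skeletal muscle markers *Actc1* alone was tested and did not pass, and no lens marker reached the limit. The part of these cell types in the receptor results was not tested.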

How the data were processed

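Whole-retina total RNA was measured on 12 arrays. The authors labeled it with 1-cycle cDNA synthesis and an IVT kit, and deposited linear signal intensities read out by GeneChip Operating Software 1.4. The scaling target and any test are not given in the sources used here. The 2% trimmed mean of the deposited intensities was 21.9541 to 30.2965 on the P1 arrays and 96.6284 to 172.042 on the P12 arrays, so the arrays share no scale. The number of arrays limits the precision.

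The signals of 45037 probe sets (without 64 AFFX controls) were quantile-normalized over the 12 arrays. They were taken as log2(signal + 16) and fitted with lmFit and eBayes with a trend (limma 3.58.1, R 4.3.3) in 1 model of 4 groups. Probe sets with a mean of 50 or more in a compared group were tested, with Benjamini-Hochberg adjustment over all of them. Figures were drawn with matplotlib 3.10.9. The steps were tested on simulated data with noise drawn independently for each array. That run does not cover arrays of the same experiment number that deviate together. No ratio of means was given where a group mean was under 16. Symbols came from the platform annotation, which gives 1 symbol for 34945 probe sets, several for 932 and none for 9160.

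Groups follow the sample titles, and the descriptions of 8 of 12 samples name the other genotype. *Otx2* was lower on every CKO array than on every control array of its age by title. Control and CKO arrays of the same experiment number deviated together across probe sets. The correlations were 0.192, 0.146 and 0.262 at P1 and 0.841, 0.894 and 0.584 at P12. The main fit of 4 groups leaves this pairing out, and a further fit took the numbers as pairs. Paired results stand beside the results they change. The pairing within each age was added after seeing the data.

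The receptor genes and the lists were chosen with earlier results of these data known. Values of every array were given for *Gabrr1* and, in each subunit group, for up to 5 genes past the threshold between genotypes and up to 3 between ages, and other genes were added where the text turned on them. Alternatives were the deposited signals, scaling by the trimmed mean, quantile normalization within each age, offsets, signal limits, the replicate block, fits of fewer groups, eBayes without the trend, an added ratio of 2, another choice of probe set and leaving out each array.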

Additional observations from a re-analysis of the deposited data

Results flagged for a closer look

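The genotype effect differed between P12 and P1 for 5 receptor genes by the interaction term of limma, with 3 arrays in each group. On the log2 scale the P12 effect minus the P1 effect was -4.02 for *Gabrr1* (adjusted p = 7.6e-05), -2.73 for *Gabrr2* (adjusted p = 0.00097), 3.0 for *Grik3* (adjusted p = 0.00047), 2.0 for *Glra2* (adjusted p = 0.023) and 1.67 for *Chrnb4* (adjusted p = 0.0075). *Grik3* was the gene among them whose genotype groups were apart at both ages in opposite directions, with the CKO arrays below control at P1 and above it at P12. *Gabrr1*, *Gabrr2* and *Glra2* were under the signal limit in control and CKO at P1, so their P1 effect was not tested. The differences for these genes mostly repeated their P12 effects.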

How the results depend on the processing

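At P12 the calls of *Gabrr1*, *Chrna3*, *Glra2* and *Grik3* held under all 25 alternatives. The others lost the call under 1 or more: *Gabrr2* with the signal limit of 50 set on the mean of 12 arrays (1 gene lower), *Chrnb4* with a limit of 100, *Gabra3* with the P12 arrays alone, and *Grik2* with both limits, with the P12 arrays alone and without P12 CKO replicate 1. Fewer genes are tested under both limits. With the experiment number within its age as a replicate block the counts were 13 higher at P12, 1 lower at P1 and 9 with a more positive effect at P12, and with the number alone as a replicate block 6 were more positive. Deposited signals gave 5 more positive. An offset of 1 and the limit on the mean of 12 arrays each left 1 more negative. The age counts moved most. In the deposited signals and with quantile normalization within each age, 22 and 27 genes rose in control and 33 and 30 in CKO, and 0 fell in either, since neither sets the ages to 1 scale. *Chrna4* in CKO was called higher under both, and *Grik3* in control under the second. A limit of 100 and the limit on the mean of 12 arrays each gave 6 in control and 10 in CKO, and 0 fell in CKO under the limit of 100. Leaving out each array gave 11 to 18 that rose in CKO and 0 to 1 that fell. Signal over background limits the dim genes, and the deposited values carry no detection call. The cause of the other shifts was not tested.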
